A study of Homo sapiens with 9 samples.

Results

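Replication-dependent histone genes encode the H1, H2A, H2B, H3 and H4 proteins that package newly made DNA during S phase. Their mRNAs are known for ending not in a poly(A) tail but just behind a short stem-loop, which is bound by SLBP and cut by a complex that contains the U7 snRNP. Transcripts of these genes that carry a poly(A) tail are made when the RNA is cleaved instead at a poly(A) signal, usually farther downstream, and they are known to accumulate in differentiating or resting cells. TIF-Seq2 is designed to capture capped and polyadenylated RNA and reads the start and the end of the same molecule. It thus aims at the polyadenylated forms of these genes and gives their transcription start site (TSS) and poly(A) site (PAS) together. Its oligo-dT primer may also bind inside an RNA, so not every counted pair need be a polyadenylated form. The distances below are genomic distances from a start to an end, and the tables of end positions do not show what was spliced out between them.

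The rule for the genes used symbols and annotation and no measured value. Protein-coding genes of Gencode v44 with the symbols H1-1 to H1-5, H2AC, H2BC, H3C and H4C followed by a number were taken, 68 of the 62700 genes of that annotation, of which 54 lie on chromosome 6, 13 on chromosome 1 and 1 on chromosome 12. A read pair was given to a gene when its 5′ end lay on the same strand between 200 bp before the gene start and the gene end, and its 3′ end lay at most 100 kb past the gene end. At least 1 pair was found for 53 genes and at least 20 pairs for 39, and 15 genes had none in any library, among the 20572 genes with a pair in the whole series.

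The cells were K562, an established erythroleukaemia line from a patient with chronic myeloid leukaemia that carries the BCR-ABL1 fusion kinase. They were exposed to 1 µM imatinib, an inhibitor of that kinase, for 24 h, or to DMSO, the solvent, as control. TIF-Seq2 was run on 2 libraries per condition, described by the study as biological replicates, and the 4 libraries held 2263121 to 5135829 read pairs. Long-read transcript models of K562 were used for splicing, and 3′T-fill libraries of the same conditions were not analysed here. The K562 markers of the erythroid lineage were detected throughout (GATA1 at 211 and 286 CPM in DMSO and 269 and 221 in imatinib, where CPM are counts of read pairs scaled to a common library total), CD3E, MS4A1 and PAX5 of lymphoid cells had no pairs, and CD4 had 1 in each imatinib library.

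Read pairs were left out where at least 7 of the 10 bases that follow the 3′ end in the genome are A, since there the oligo-dT primer may have bound inside the RNA, and pairs under 300 bp apart were left out too. This left 44873 of 48761 histone pairs (each counted once). The A-rich pairs made up 7.11% of the histone pairs, and 9.48% without H1-2, against 8.6% of all pairs. H3C12 was not counted as a gene of its own where pairs are summed, because 826 of its 844 pairs were those of H2AC17, whose start lies inside the H3C12 window.

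A match to the stem-loop pattern was present in the genome behind the stop codon of 65 of the 68 genes, 22 to 67 bases after it. The pattern was written in the form these genes carry, so a gene without a match need not lack a stem-loop. The 3 genes without a match were H3C6, with 1 read pair, and H2BC10 and H4C13, with none. The stem-loops of H2BC17, H2BC12 and H4C11 are shown (hg38, 5′ to 3′) because most of the pairs of these genes ended far past it, in the case of the H2B genes, or directly behind it, in the case of H4C11. Capitals mark the 16-base stem-loop, a 6-base stem on each side of a 4-base loop, and lower case its flanks.
H2BC17 stem-loop, chr6:27893863-27893892, plus strand: atccaaaGGCTCTTTTCAGAGCCactcacg
H2BC12 stem-loop, chr6:27146359-27146388, minus strand: ccccaaaGGCTCTTTTAAGAGCCacttaaa
H4C11 stem-loop, chr6:27824452-27824481, plus strand: aataaaaGGCCCTTTTCAGGGCCaccctac
The form printed for H2BC17 was the commonest, with 40 of the 65 genes and members of all families but H4. Of the H4 genes, 10 had the form printed for H4C11 and 4 differed from it in a base of the loop.

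The last 30 bases before the most used PAS are shown for the genes that the results turn on. Capitals mark AATAAA or ATTAAA, hexamers that the cleavage and polyadenylation machinery recognises, where one was found with its first base at least 10 nt before the end. No other hexamer was searched.
H1-2, 82 nt past the stop codon, chr6:26055705-26055734, minus strand: ctcAATAAAagagctggataatttctttac
H2BC12, 8124 nt past, chr6:27138294-27138323, minus strand: accttAATAAAtttgtatgccttttctctt
H2BC17, 64478 nt past, chr6:27958292-27958321, plus strand: cctcaAATAAAatttccttgatgaagagct
H2AC25, 444 nt past, chr1:228456981-228457010, minus strand: tatctgatATTAAAagtatttatgatctct
H2BC5, 12796 nt past, chr6:26171317-26171346, plus strand: ttataattAATAAAatctgcggagaattgt
H2AC13, 2696 nt past, and H3C10, 814 nt past, chr6:27811269-27811298, plus strand: gtatgactaAATAAAatctgtataatcccc
H2AC17, 175 nt past, chr6:27892582-27892611, minus strand: tattgggtaaAATAAAagtattgaatcagg
H2AC8, 109 nt past, chr6:26217447-26217476, plus strand: taaagtgctggaatacacatacgatgcctg
H2BC8, 77 nt past, chr6:26216186-26216215, minus strand: tcaagtctcacataaagagctttaatattg
H4C11, 51 nt past, chr6:27824458-27824487, plus strand: aggcccttttcagggccaccctactttctc
The windows of H2AC8, H2BC8 and H4C11 held neither hexamer, and that of H4C11 ran through the stem-loop, with the cleavage 13 nt behind it. An AATAAA opens the printed flank of the H4C11 stem-loop, just outside the 35 nt searched.

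Most of the polyadenylated histone RNA came from few genes, and the amount differed between them by orders of magnitude. H1-2, the most abundant linker histone gene here, gave 12649 kept pairs, 28.2% of the total, and the 5 largest genes (H1-2, H2BC12, H2BC11, H2AC25 and H2BC5) gave 64.1%. H2B genes, which encode a partner of the H2A-H2B dimer, gave 42.6% of the pairs, H1 genes 28.6%, H2A genes 20.1%, H3 genes 5.46% and H4 genes 3.25%. Of the 18 H2B genes 11 reached 20 pairs, as did 12 of 17 H2A, 4 of 5 H1, 5 of 13 H3 and 7 of 15 H4 genes. Summed over the genes, the libraries held 2827 and 2744 CPM (of all kept pairs, without TMM factors) in DMSO and 3473 and 4679 in imatinib.

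**Figure D1:**
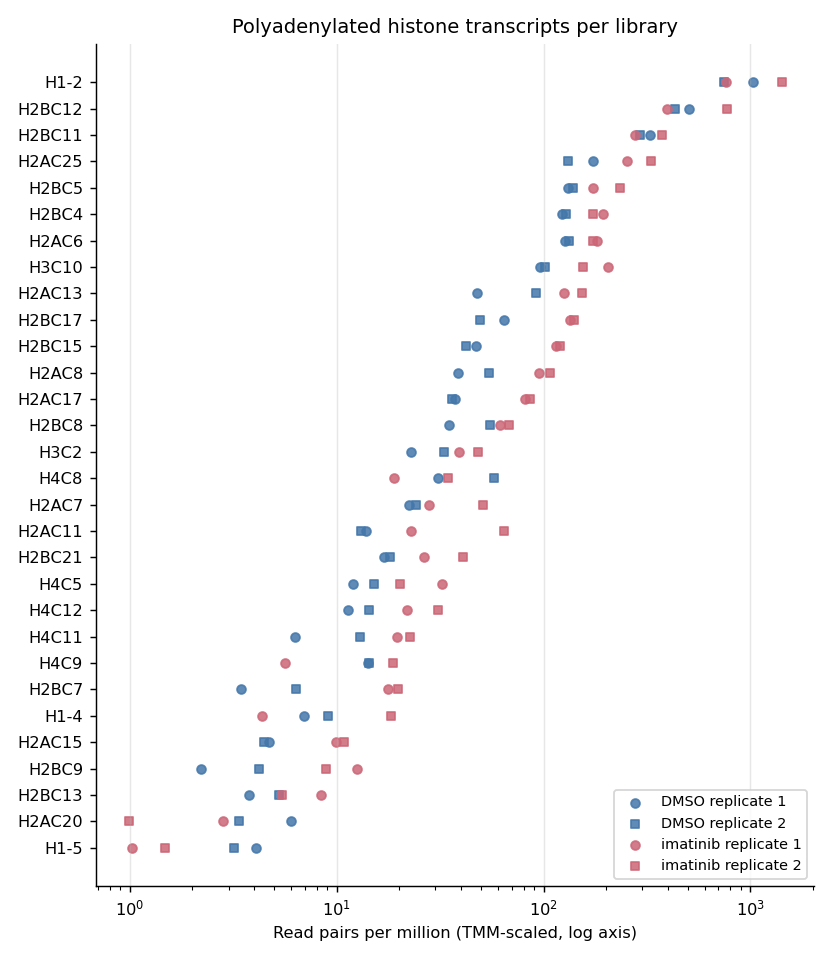
Level of each tested histone gene in each library, in CPM (TMM-scaled) on a log axis, for 30 genes ordered by their mean over the 4 libraries (blue, DMSO, red, imatinib, circles and squares the replicates). H1-2 lies between 742 and 1417 and H1-5 between 1.02 and 4.09, and for 22 genes both red symbols lie above both blue ones.

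The site with the most pairs lay from 51 to 64478 nt past the stop codon in all but 4 of the 35 genes with at least 20 kept pairs. In H2AC20 it lay 12 nt past the stop codon, and in H2BC15 (-6 nt), H1-3 (-210 nt) and H1-5 (-237 nt) it lay inside the coding sequence. Pooled over pairs, the median PAS lay 33 nt past the annotated gene end, and the medians of the 4 libraries were 34, 33, 33 and 35 nt (mean 33.8 ± 0.957 SD, n = 4). Without H1-2 the pooled median was 2 nt, and the median of the genes' own medians was 257 nt over the 35 genes with at least 20 kept pairs. The gene end is also a poor origin where Gencode already holds a long isoform, as for H2BC4 (37207 bp from stop codon to gene end), H2AC25 (22648 bp) or H2BC5 (12799 bp), so distances are given from the stop codon from here on. Measured so, the pooled median was 1083 nt, the library medians were 819 and 1966 nt in DMSO and 1083 and 1028 nt in imatinib (mean 1220 ± 508 SD, n = 4), and the median of the genes' medians was 1679 nt. Without H1-2 the pooled median past the stop codon was 6460 nt, with library medians from 6290 to 6485 nt, so the lower value rests on that gene. The H1 pairs had a median of 82 nt, H2A of 447 nt, H3 of 814 nt, H4 of 1087 nt and H2B of 8124 nt.

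Read against the stem-loop, 1.38% of the pairs ended before the end of the stop codon, 0.662% between the stop codon and 5 nt past the stem-loop, 33.7% within the next 200 nt, 13.7% up to 1 kb, 35.4% from 1 to 10 kb and 15.2% over 10 kb past it. The share within 200 nt ran from 30.2% to 37.9% over the libraries and that over 10 kb from 12.4% to 19.4%, in both cases with DMSO replicate 1 and imatinib replicate 1 at the ends of the range and the remaining pair between them. Without H1-2 and H2BC12, the share within 200 nt was 10.6% and that over 10 kb was 26.7%. By the class that holds most of its pairs, 16 genes belonged to the 1 to 10 kb class, 6 to each of the nearer ones past the stem-loop, 4 to the class over 10 kb, 1 to the class up to the stem-loop and 2 to that before the stop codon.

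**Figure D2:**
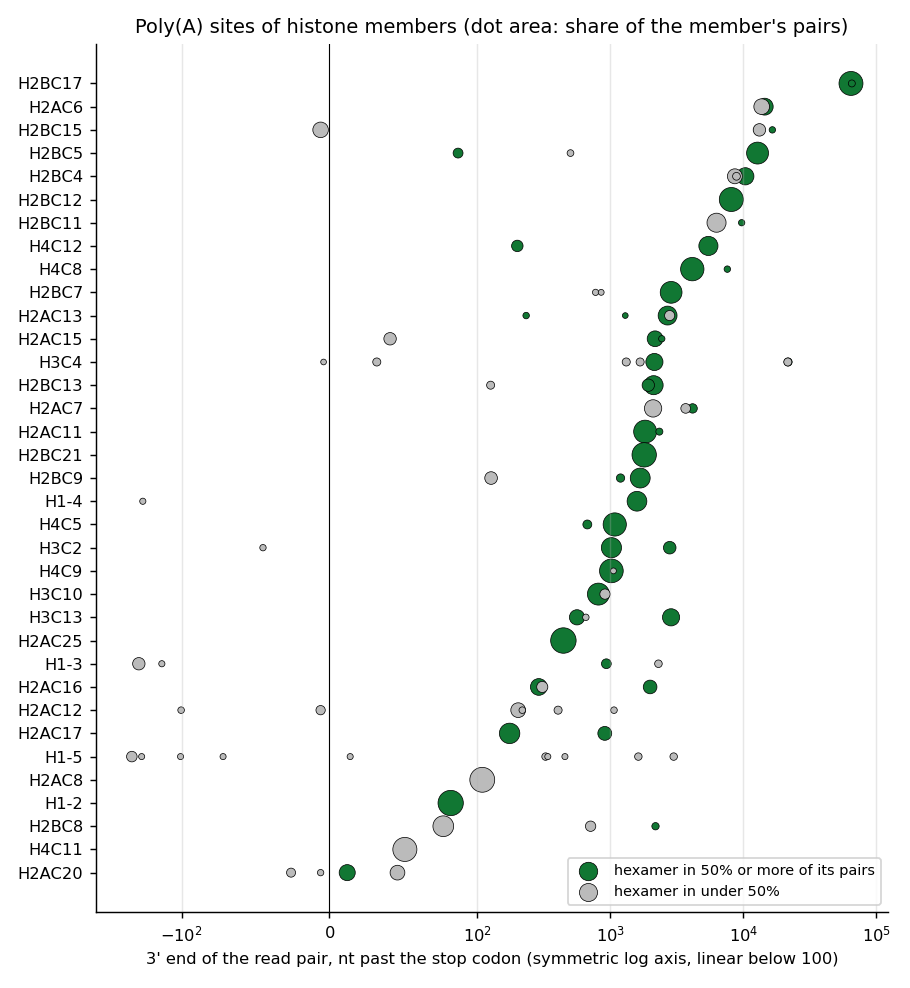
Sites that take at least 5% of a gene's kept pairs, by their distance past the stop codon in nt (symmetric log axis, linear below 100), for the 35 histone genes with at least 20 kept pairs ordered by the median. Dot area gives the share of the gene's pairs and green marks sites with AATAAA or ATTAAA in at least 50% of the pairs. The sites run from -237 nt in H1-5 to 65432 nt in H2BC17, and the nearest green site is that of H2AC20 at 12 nt.

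Directly behind the stem-loop ended the pairs of 6 genes. H1-2 (linker histone) used 1 site: 98.2% of its pairs ended in a cluster 82 nt past the stop codon and 39 nt past the stem-loop, with the hexamer in 98.4% of all its pairs. The share within 10 nt of the top position was 96.1% and 95.2% in DMSO and 95.8% and 97.2% in imatinib. H2AC17 ended at 175 nt (63.9%) and at 909 nt (29.5%), both with a hexamer. H2AC8 ended 109 nt past the stop codon in 94.8% of its 967 pairs, H2BC8 at 77 nt in 65.8% of its 751 and H4C11 at 51 nt in 88.7% of its 204, which is 44, 32 and 13 nt past the stem-loop. In these genes the hexamer was found in 1.34%, 8.92% and 30.9% of the pairs, against 84.6% of the kept pairs of all genes and 78.7% of those of the histone genes. Only AATAAA and ATTAAA with a first base from 10 to 35 nt before the end were counted. H2BC8 in addition lost 1051 of its 1807 pairs (58.2%) to the filter on A-rich sequence, 749 of them at 1 position 1456 nt past the stop codon. H2AC12 had 30 pairs, scattered, and none with a hexamer.

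Between 200 nt and 1 kb past the stem-loop was the leading class of H2AC25, H3C10, H3C2, H4C9, H3C13 and H2AC16. H2AC25, on chromosome 1, used 1 site 444 nt past the stop codon for 99.4% of its 2831 pairs, with 98.8% to 99.5% of the pairs within 10 nt of it in every library, although its annotated gene runs on for kilobases. H4C9 ended at 1019 nt in 86.1% of its pairs. H3C2 had a site at 1020 nt with 62.2% of its 481 pairs and one at 2797 nt with 24.3%, and the former held 71.2% and 72.0% in DMSO and 54.2% and 52.0% in imatinib within 10 nt. The conditions did not overlap in that share, and the difference was not tested. H3C13 and H2AC16 had 31 and 21 kept pairs, and the largest single site of H3C13 lay outside this class, at 2863 nt with 45.2% of its pairs, against 35.5% at its largest site within it.

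In the class from 1 to 10 kb, H2BC12 ended 8124 nt past the stop codon in 88.4% of its 6761 pairs and H2BC11 at 6290 nt in 55.7% and 6473 nt in 30.2% of its 4272. The first of the H2BC11 sites had the hexamer in 0% of its pairs and the second in 81.8%. H2BC21 ended at 1798 nt (91.1% of 327 pairs), H2AC11 at 1827 nt (80.4% of 326), H4C5 at 1080 nt (82.7% of 278), H2BC7 at 2866 nt (72.7% of 150), H2BC9 at 1679 nt (60.6% of 94), H2BC13 at 2117 nt (55.6% of 81) and H2AC15 at 2171 nt (38.1% of 97). H4C8 had 83.7% of its 515 pairs at 4134 nt. H4C12 ended at 5465 nt in 56.1% and at 200 nt in 20.2% of its 253 pairs. Its first 68 bases, the length of a 5′ read, have an exact copy elsewhere in the genome, and so do those of H4C11. Only uniquely mapped pairs were kept, so pairs of both genes may have been lost and their counts are uncertain. The same holds for H3C13 and, in all, for 9 of the 68 genes. H2BC4 spread over sites at 10351 nt (45.5%), 8636 nt (34.2%) and 8884 nt (9.28%), with 1033 further pairs removed as A-rich.

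The class over 10 kb past the stem-loop led in H2BC5, H2AC6, H2BC15 and H2BC17. H2BC5 ended at 12796 nt in 73.6% of its 2231 pairs and at 87 nt in 15.0%. H2AC6 ended at 14488 nt (43.6%), 13748 nt (37.8%) and 14330 nt (15.5%). Its most distal site took 24.0% and 39.4% of the pairs in DMSO and 57.3% and 16.9% in imatinib within 10 nt, so the imatinib replicates lay farther apart than the conditions. H2BC15 had 37.2% of its 1045 pairs ending 6 nt before the end of the stop codon, where no hexamer was found, and 23.8% and 17.8% at 13220 and 13156 nt.

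Ends inside the coding sequence were the leading class for H1-5 (35 kept pairs) and H1-3 (34), and ends up to the stem-loop for H2AC20 (48). These were also the genes with many A-rich ends: 72 of 107 pairs for H1-5, 23 of 59 for H1-3 and 152 of 200 for H2AC20. H4C3 (124 A-rich of 142 pairs) and H3C4 (35 of 55) were similar, and H2AC21 and H4C2 had 20 pairs each before the filter.

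For 12 histone genes at least 4 pairs ended in another annotated gene of the same strand, from its start to 200 bp past its end. Such pairs are called read-through here, and their end need not be the downstream gene's own end. The largest was H2BC12, with 6171 of 6761 pairs (91.3%) ending in a lncRNA gene known only as ENSG00000290032, 7821 bp downstream. In H2AC13, 1045 of 1390 pairs (75.2%) ended in H3C10, a histone H3 gene 1384 bp away. Both of its leading sites were also those of H3C10: the position printed above took 54.7% of the H2AC13 and 73.9% of the H3C10 pairs, and a site 98 nt farther on took 15.8% and 16.2%. H1-4 shared the near site of H2BC5: 59.7% of its 119 pairs and 15.0% of the H2BC5 pairs ended at the same position, 1587 nt past the H1-4 and 87 nt past the H2BC5 stop codon. In H2AC7, 191 of 397 pairs (48.1%) ended in H3C4, most of them 86 nt past the H3C4 stop codon and 35 nt past its stem-loop, again without a hexamer. H2BC7 ended in a processed pseudogene, ENSG00000217275, in 115 of 150 pairs (76.7%). Smaller numbers ran from H2BC11 into ENSG00000272468 (264 pairs), H2BC21 into H4C15 (17), H3C13 into H2BC18 (15) and H2AC12 into MIR3143 (12). Fewer still ran from H2BC5 into H2BC6 (8) and H2AC8 into H3C6 (4). Of the 12 H2AC12 pairs, 10 ended at that gene's main site, 203 nt past its stop codon. In H1-4, 93 pairs ended in ENSG00000291338 and 81 in H2BC5. A further 11 combinations of genes had 1 pair each.

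Among the 35 genes with at least 20 kept pairs, H2BC17 (ENSG00000274641.2, chr6:27893425-27893891, plus strand) had the main site at the largest genomic distance from its stop codon. Its partner OR2B6 is an olfactory receptor gene at chr6:27957241-27958182, whose start lies 63350 bp past the H2BC17 end. Of the 1252 kept H2BC17 pairs, 1103 (88.1%) ended between the OR2B6 start and 200 bp past its end, 112 (8.95%) beyond that and 34 (2.72%) between 10 kb past H2BC17 and OR2B6. Only 2 pairs ended inside the H2BC17 gene. The OR2B6 class held 171 of 204 pairs in DMSO replicate 1 (83.8%, 95% Wilson interval 78.2 to 88.2), 206 of 234 in DMSO replicate 2 (88.0%, 83.2 to 91.6), 468 of 528 in imatinib replicate 1 (88.6%, 85.6 to 91.1) and 258 of 286 in imatinib replicate 2 (90.2%, 86.2 to 93.1). These intervals cover counting error only. The means were 85.9% ± 2.98 (SD, n = 2) in DMSO and 89.4% ± 1.11 (SD, n = 2) in imatinib, and with 2 against 2 libraries an exact two-sided permutation test cannot go below p = 0.333. The class short of OR2B6 held 6.37% and 4.27% in DMSO and 1.14% and 1.75% in imatinib, from 5 to 13 pairs a library. Read from the other side, 1103 of the 1118 pairs that ended in OR2B6 (98.7%) started in H2BC17 and 8 started at OR2B6 itself.

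All 10 long-read models of this locus joined H2BC17 to OR2B6 and had 2 to 6 exons. They came from targeted amplification, so their outer ends depend on primers and only their splicing is read here. In all 10 the first exon ended at the same position, 90 bp past the gene end and 96 nt past the stem-loop, so the spliced RNA kept the whole H2BC17 coding sequence and its stem-loop. The commonest last exon, in 7 models, began 758 bp inside OR2B6, 2 further models began 763 bp inside it, and 1 model began 25 bp before the gene and held all of it. The spliced lengths were 858 to 2061 nt, which stands against the 64 kb of genome between the ends. Both splice sites are shown because they define the joined transcript, with the intron's first and last dinucleotides in capitals.
H2BC17 first exon donor, chr6:27893972-27894001, plus strand: gcgggaaaagGTaagctaagctccctaggc
Last exon acceptor in OR2B6, chr6:27957979-27958008, plus strand: gtggtgtctcttttttatAGtacagccgtc

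**Figure D3:**
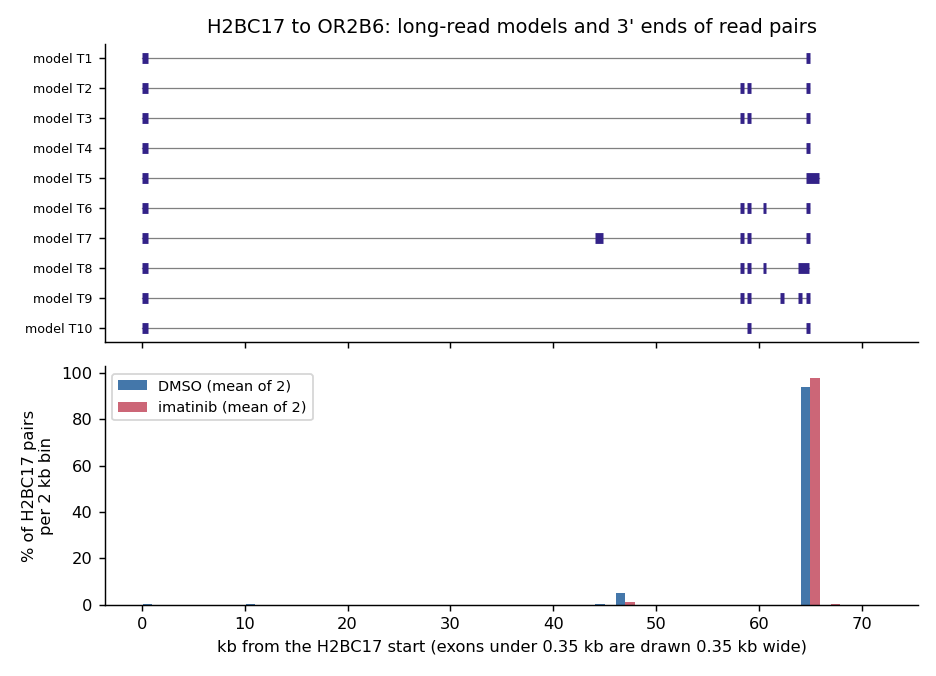
Upper part, exons (boxes) and introns (lines) of the 10 long-read models from H2BC17 to OR2B6, by distance in kb from the H2BC17 start. Lower part, the share of H2BC17 read pairs whose 3′ end falls in each 2 kb bin (mean of 2 libraries per condition), with 94.2% in DMSO and 98.0% in imatinib in the bin from 64 kb and 4.9% and 1.35% in the bin from 46 kb.

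H2A and H2B genes often lie head to head and share the space between their starts, and 12 such pairs with starts at most 500 bp apart were found. Of these, 10 had pairs on both sides. The kept pairs were close in number in H2BC4 and H2AC6 (2112 and 2100), in H2BC8 and H2AC8 (751 and 967) and in H2AC17 and H2BC17 (784 and 1252). Before the filters, H2BC4 and H2AC6 had 3186 and 2145 pairs and H2BC8 and H2AC8 had 1807 and 1077. The A-rich pairs among these numbered 1033, 20, 1051 and 102, in that order, so both comparisons depend on that filter. Kept pairs were far apart in number in H2BC12 and H2AC12 (6761 and 30, a ratio of 225), in H2AC25 and H2BC26 (2831 and 8, a ratio of 354) and in H2BC13 and H2AC13 (81 and 1390). No H2BC26 pair started within 10 bp of its annotated start, and the commonest start lay 623 bp inside the gene. Its ratio therefore need not describe the space between the starts. In RefSeq promoters (GRCh38.p14, 250 bases before to 50 after the start), 63 of the 68 genes were matched. The octamer ATTTGCAT, on either strand, was present in 11 of 16 H2A, 14 of 18 H2B, 1 of 11 H3 and none of the 5 H1 and 13 H4 promoters, against 1.77% of the 35116 promoters of the table. CCAAT was present in 84.1% of the histone promoters against 34.6%, and TATAAA in 66.7% against 11.5%. Among the largest genes, the promoters of H2BC12 and H2BC11 held the octamer and those of H1-2, H2AC25 and H2BC5 did not. Those of H2AC17 and H2BC17 held it and that of H2BC15 did not. A link between the octamer and the level or its change was not tested.

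**Figure D4:**
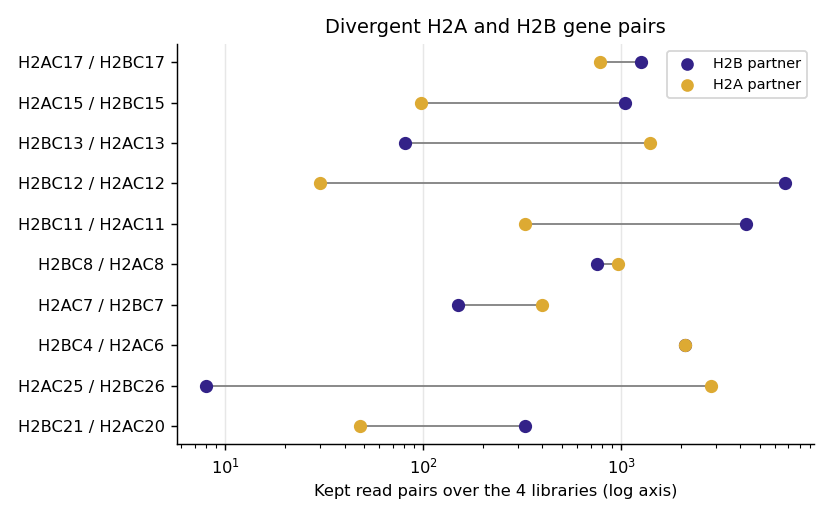
Kept read pairs over the 4 libraries (log axis) for the 10 divergent H2A and H2B gene pairs with pairs on both sides, one line per gene pair (blue, H2B, yellow, H2A). The partners differ by 1.01-fold in H2BC4 and H2AC6 and by 354-fold in H2AC25 and H2BC26. Before the filters, H2BC4 and H2AC6 had 3186 and 2145 pairs. The H2BC26 pairs did not start within 10 bp of its annotated start.

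In imatinib, polyadenylated transcripts of 7 histone genes rose and none fell. They were H2BC7, H2BC9, H2AC11, H2BC15, H2BC17, H2AC17 and H2AC8, all genes for core histones H2A or H2B, with log2 fold changes from 1.11 to 1.88. Over all 11411 tested genes 9.1% were called higher and 6.16% lower by edgeR's quasi-likelihood test at an adjusted p under 0.05. Of the histone genes 30 passed the filter on low counts and 7 of these (23.3%) were called. The 30 were kept partly for being high enough in a condition, so the share describes the tested genes and not all 68. Their median log2 fold change was 0.80 against 0.02 over all tested genes, and 26 were above 0. In 22 of the 30 both imatinib libraries lay above both DMSO libraries, which 30.7% of all genes did, and in 2 both lay below, which 29.0% did. The 4 libraries do not show whether more cells held these RNAs or each cell held more of them.

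**Figure D5:**
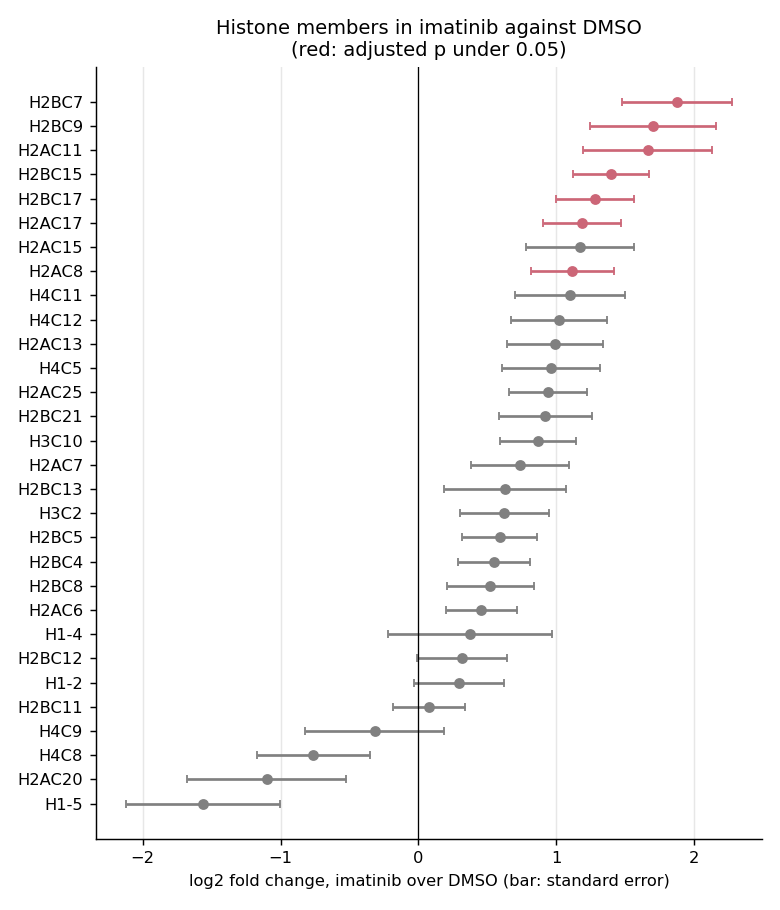
Log2 fold change in imatinib over DMSO for the 30 tested histone genes, from edgeR's fit over all genes with 2 libraries per condition. Bars give a standard error derived from the test's F statistic. The 7 genes in red passed an adjusted p of 0.05 and lie between 1.11 and 1.88, and the 4 genes below 0 (H1-5, H2AC20, H4C8 and H4C9) did not pass.

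H2BC17 stood at 64.2 and 49.4 CPM in DMSO and at 135 and 141 in imatinib. The conditions did not overlap, and the log2 fold change was 1.28 ± 0.284 (SE, edgeR adjusted p = 0.0158). Pairs from H2BC17 to OR2B6, counted as a feature of their own, stood at 53.8 and 43.5 in DMSO and 119 and 127 in imatinib (log2 fold change 1.34 ± 0.283 SE, edgeR adjusted p = 0.0129). They are 1103 of the 1252 kept H2BC17 pairs, so both results rest largely on the same pairs. In a fit that leaves out a library, 1 condition has a single library, which is assumed to vary like those of the other. The call of this feature did not hold without DMSO replicate 1 (adjusted p = 0.0619) or without DMSO replicate 2 (adjusted p = 0.179), and over its other alternatives the adjusted p was 0.0445 or less. H2AC17, the head-to-head neighbour of H2BC17, stood at 37.4 and 36.1 in DMSO and 81.6 and 85.6 in imatinib (log2 fold change 1.18, edgeR adjusted p = 0.0209).

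H2BC15 stood at 47.2 and 42.2 CPM in DMSO and 115 and 120 in imatinib, a change of 1.40 ± 0.278 SE on the log2 scale (edgeR adjusted p = 0.0103). Of its kept pairs, 37.2% ended at the site without a hexamer inside the coding sequence. H2AC8 stood at 38.4 and 54.3 in DMSO and at 94.6 and 107 in imatinib (log2 fold change 1.11, edgeR adjusted p = 0.0344). In both genes the conditions did not overlap. H2BC7, which ends mainly in the pseudogene, stood at 3.46 and 6.34 in DMSO and at 17.6 and 19.7 in imatinib (log2 fold change 1.88 ± 0.398 SE, edgeR adjusted p = 0.0132). H2BC9 stood at 2.20 and 4.22 in DMSO and 12.5 and 8.86 in imatinib, from 7 to 49 pairs a library (log2 fold change 1.70, edgeR adjusted p = 0.0338). The H2BC9 call held in 6 of 12 alternatives. It was lost with DESeq2 (adjusted p = 0.158), with all pairs of the rule (edgeR adjusted p = 0.0761), with the replicate number as a block, and without DMSO replicate 1, DMSO replicate 2 or imatinib replicate 1. H2AC11 stood at 13.8 and 13.1 in DMSO and at 22.9 and 64.0 in imatinib, so its replicates differed more from each other than the lower of them did from DMSO (log2 fold change 1.66 ± 0.468 SE, edgeR adjusted p = 0.042).

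The number of calls moved when a library was left out. It was 1 without DMSO replicate 1 (H2AC11) and 1 without DMSO replicate 2 (H2BC7), 15 without imatinib replicate 1, 10 without imatinib replicate 2, and 2 with the replicate number as a block (H2BC15 and H2BC7). The genes that lost the call kept log2 fold changes of 0.87 to 1.52 without DMSO replicate 1 and of 1.08 to 2.25 without DMSO replicate 2. The call of H2AC11 was lost without imatinib replicate 2, where its log2 fold change was 0.74. Leaving out imatinib replicate 2 also called 2 genes lower, H4C8 and H4C9.

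The most abundant genes did not pass the test. H1-2 stood at 1031 and 742 CPM in DMSO and 759 and 1417 in imatinib, and the conditions overlapped (log2 fold change 0.29 ± 0.324 SE, edgeR adjusted p = 0.581). H2BC12 stood at 502 and 433 in DMSO and 393 and 773 in imatinib (0.32 ± 0.325 SE, edgeR adjusted p = 0.549). In both it was imatinib replicate 2 that was high, and without it the sign turned (-0.25 for H1-2 and -0.28 for H2BC12). H2BC11 stood at 326 and 293 in DMSO and 277 and 375 in imatinib (0.07 ± 0.263 SE, edgeR adjusted p = 0.877). H2AC25, at 174 and 131 in DMSO and 252 and 331 in imatinib, lay just outside the threshold (0.94 ± 0.281 SE, edgeR adjusted p = 0.0504). H3C10 stood at 95.6 and 102 in DMSO and 205 and 155 in imatinib (0.87, edgeR adjusted p = 0.0608), and H2AC13, which shares its PAS, at 47.5 and 91.9 and at 125 and 154 (0.99, edgeR adjusted p = 0.0835).

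H2BC5, H2BC4, H2AC6, H2AC7, H3C2, H2BC8, H2BC13, H2BC21, H2AC15, H4C5, H4C11 and H4C12 had fold changes from 0.46 to 1.17 on the log2 scale with both imatinib libraries above both DMSO libraries, and none of the 12 passed. The linker histone gene H1-5 (4.09 and 3.17 in DMSO, 1.02 and 1.48 in imatinib) and H2AC20 (5.98 and 3.38 in DMSO, 2.80 and 0.984 in imatinib) had both imatinib libraries below both DMSO libraries, without passing (edgeR adjusted p = 0.0871 and 0.226). Both genes lost most of their pairs to the filter on A-rich ends, and with all pairs of the rule the log2 fold change of H1-5 moved from -1.56 to -0.09 (edgeR adjusted p = 0.911) and that of H2AC20 from -1.10 to -0.47 (edgeR adjusted p = 0.4). Of the kept pairs, 18.8% in H2AC20 and 37.1% in H1-5 ended before the end of the stop codon, and 75.0% and 8.57% between it and the stem-loop. H1-4 and H4C9 overlapped between conditions, with imatinib values of 4.33 and 18.2 and of 5.61 and 18.7, and so did H4C8.

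Whether imatinib changed the share of a gene's pairs that end over 200 bp past the gene end was asked separately. This test cannot see a shift between sites on the same side of that limit. The H3C2 sites 959 and 2736 bp past its end are such a case. H2BC4, H2AC6, H2BC5 and H2AC25, with long annotated ends, were not among the genes tested. Of 491 genes with enough pairs in both classes, 6.52% were called. Among them were 8 histone genes (H1-2, H2AC13, H2AC17, H2BC8, H2BC11, H3C2, H3C10 and H4C12), and none of these was called by edgeR's test of feature usage, nor had any an unadjusted p under 0.05 (smallest adjusted p 0.239, H4C12). In H2AC17 the share was 42.0% and 33.3% in DMSO and 21.6% and 48.3% in imatinib, so the imatinib replicates spanned both DMSO values. In H4C12 it was 58.3% and 67.6% in DMSO and 70.9% and 95.2% in imatinib, and without imatinib replicate 1 this gene was called. H2BC17 could not be tested so, since 2 of its pairs ended within the gene.

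Genes of stem-loop processing and of histone gene control were looked at in the same fit, from a list of 20 of which 19 were tested. None rose and 2 fell, with a median log2 fold change of -0.02. Over all tested genes 9.1% were called higher and 6.16% lower, and the count of the list rests on 2 genes. LSM10, a subunit of the U7 snRNP that takes part in stem-loop cleavage, stood at 192 and 209 CPM in DMSO and at 53.5 and 61.0 in imatinib, and fell by 1.81 on the log2 scale (edgeR adjusted p = 0.00347). ERI1, an exonuclease that binds the histone stem-loop, stood at 74.2 and 86.8 in DMSO and 29.3 and 37.4 in imatinib and fell by 1.28 (edgeR adjusted p = 0.0196). For both the conditions did not overlap. The call of LSM10 held without any 1 library (adjusted p from 4.1e-07 to 0.00664), while that of ERI1 was lost without DMSO replicate 1 (adjusted p = 0.052) or DMSO replicate 2 (adjusted p = 0.153) and held without either imatinib library. SLBP, the stem-loop binding protein, stood at 206 and 188 in DMSO and 149 and 229 in imatinib (-0.06 ± 0.288 SE, edgeR adjusted p = 0.904), and the conditions overlapped.

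Of 15 histone genes outside the replication-dependent set 7 were tested, none rose and 1 fell: CENPA, the histone H3 variant of the centromere, at 87.1 and 133 CPM in DMSO and 52.0 and 40.9 in imatinib (fell by 1.24 on the log2 scale, edgeR adjusted p = 0.0289, and 0.301 without DMSO replicate 2). The replacement histone genes H2AZ1 and H3-3A stood at 1640 and 1270 and at 1610 and 1270 in DMSO, against 1340 and 1470 and 1810 and 2150 in imatinib, without passing. Of 17 S-phase genes, all tested, 1 rose and none fell, with a median log2 fold change of 0.05. The counts of both lists rest on 1 gene each and stand beside 9.1% called higher and 6.16% lower over all tested genes. MCM2, a subunit of the replicative helicase, stood at 36.2 and 37.2 CPM in DMSO and at 72.4 and 80.7 in imatinib (1.06, edgeR adjusted p = 0.0335). Its call did not hold without DMSO replicate 1 or DMSO replicate 2 (adjusted p = 0.261 in each case) and held without either imatinib library. PCNA, the sliding clamp, stood at 865 and 653 in DMSO and 686 and 1200 in imatinib without passing.

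The erythroid markers moved in the same libraries. Of 8 such genes, 6 rose (HBG1, HBG2, HBE1, HBZ, KLF1 and LMO2), where 9.1% of all tested genes did. The summed level of the 8 was 6730 and 6060 CPM (without TMM factors) in DMSO and 20000 and 19000 in imatinib. The calls of HBG1, HBE1 and HBZ held without any 1 library, those of HBG2 and KLF1 were lost without DMSO replicate 2 (adjusted p = 0.0995 and 0.056), and that of LMO2 was lost without DMSO replicate 1 (adjusted p = 0.0791) or DMSO replicate 2 (adjusted p = 0.153). The part of this change in the histone result was not tested.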

How the data were processed

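Per the labels and the study's methods, TIF-Seq2 libraries of K562 cells were sequenced with 8-base UMIs. The authors trimmed the reads (cutadapt 1.16), aligned both ends separately to hg38 (STAR 2.5.3a), kept uniquely mapped pairs, removed PCR duplicates and deposited raw counts of read pairs for each combination of end positions, without normalization. Long-read models (minimap2 2.16) were deposited as coordinates, pooled over samples.

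Pairs were assigned to all genes of Gencode v44 by the rule in the report, and the condition and replicate came from the sample titles. A pair was counted for every gene whose window held its 5′ end. Kept libraries held 2049853 to 4636566 pairs. Counts per gene were compared with edgeR 4.0.16 (R 4.3.3; TMM factors, filterByExpr, quasi-likelihood test, Benjamini-Hochberg adjustment over all genes and the read-through feature), and the share of distant ends with diffSpliceDGE on the same counts. DESeq2 1.42.0, RLE factors, no filter, all pairs, other windows, a replicate block and leaving out each library were alternatives. Stem-loops were searched with a fixed 16-base pattern up to 300 nt past the stop codon, and hexamers from 10 to 35 nt before the 3′ end. Sites are positions joined within 10 bp. Same-numbered libraries were not paired in the main fit. Their deviations from the group means correlated at -0.273, which with 2 libraries per condition cannot show whether the replicates were matched. The study speaks of a corresponding DMSO control. In simulated data with 200 of 11412 features changed by 2 on the log2 scale, the fit called 84.9% of them. All simulated features had a common dispersion, and the histone changes were smaller (at most 1.88), so their recovery was not measured.

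Histone genes as the subject, the lists and the tests were chosen with earlier results of these data known, while the rule for the members uses no measured value. The text names H2BC17, every gene with at least 20 pairs, every gene called or with at least 4 pairs ending in another gene, called list genes and SLBP. Some genes of the lists are not reported here and were left out of the lists' counts. GATA1, other markers, H2AZ1, H3-3A, PCNA and H2BC26 were named after their values were seen. Unique mapping limits the counts of near-identical genes. Replicates differed beyond sampling noise (chi-square per degree of freedom 9.3 in DMSO and 14.7 in imatinib).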

Additional observations from a re-analysis of the deposited data

How the results depend on the processing

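Directions held in 25 of 30 tested histone genes under every alternative run. The reversals were in genes without a call. When each library was left out, the log2 fold change ran from -0.25 to 0.70 for H1-2, from -0.93 to 1.18 for H1-4, from -0.19 to 0.30 for H2BC11, from -0.28 to 0.74 for H2BC12 and from -1.37 to 0.41 for H4C9. For H2BC11 it was also -0.02 with no filter. Histone genes called higher numbered 7, and 6 to 9 under other factors, DESeq2, filters and windows. They numbered 2 with the replicate block and 1 to 15 when each library was left out, and 0 to 2 were then called lower, where the fit of all libraries called none (1 at an unadjusted p under 0.05, and none with DESeq2). With crossed numbers (DMSO replicate 1 beside imatinib replicate 2), chosen after seeing the data, 15 histone genes and, of all genes, 1607 were called higher and 1419 lower.

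Over all genes, 1038 were called higher and 703 lower. DESeq2 called 657 higher, no filter 1260 lower, starts within 200 bp of the gene start 632 and 435, the replicate block 689 and 371, and leaving out a library 501 to 1948 and 306 to 1611. The H2BC17 to OR2B6 feature kept its direction (1.17 to 1.48 when each library was left out) and could not be had with ends at most 10 kb past the gene. The share of distant ends gave 32 called genes, 0 with the replicate block and 0 to 75 when each library was left out, with 0 to 1 histone genes. The median distance past the gene end was 33 nt, 33 to 34 nt when each library was left out and 257 nt as the median of the genes' medians; from the stop codon it was 1083, 1020 to 1587 and 1679 nt, and 6460 nt without H1-2. With 2 libraries per condition and from 7 pairs a library for H2BC9, small changes of low genes were not detectable at this depth. Causes of these differences were not tested.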
